A study of Mus musculus with 12 samples.

Results

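The mouse Rhox cluster is a run of X-linked homeobox genes, and 8 of its members were described here: Rhox1, Rhox2a, Rhox4b, Rhox5, Rhox6, Rhox9, Rhox10 and Rhox13. They were chosen by gene symbol, with earlier results of these data known, from the 23354 genes that all libraries list. There, 31 symbols begin with Rhox. The shares of members set beside those of all genes are therefore a description and no independent test. mRNA was sequenced from stable lines of J1 cells, a male mouse embryonic stem (ES) cell line, kept on inactivated embryonic fibroblast feeders in serum medium with LIF. The 12 libraries fall into 6 groups of 2. The first 3 groups overexpress a histone H3.1: H3.1K36M carries methionine at lysine 36, H3.1K9M carries methionine at lysine 9, and H3.1WT, their control, is the wild-type protein. The other 3 carry a short hairpin: shSuv39h2 and shSuv39h1 are named for the H3K9 methyltransferase gene they target, and shNC is taken as their control hairpin. All 6 groups share the J1 background and the feeder culture. The sources used here give neither the number of clones behind a stable line nor the origin of its 2 libraries, so the p-values reflect a spread between libraries that may be technical only.

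Rhox genes encode homeodomain transcription factors that are best known from the testis, ovary, epididymis and placenta. The cluster is commonly split into an alpha part with Rhox1 and the tandem Rhox2, Rhox3 and Rhox4 copies, a beta part from Rhox5 to Rhox9, and a gamma part from Rhox10 to Rhox13. In the mouse embryo the cluster is silenced with DNA methylation as cells leave the early pluripotent state, whereas ES cells grown in serum keep Rhox5 active. Methionine in place of lysine 9 or lysine 36 of H3 is known to lower methylation of that lysine on other H3 molecules of the cell.

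Levels are FPKM, fragments scaled to the length of the transcript and the depth of the library, so different genes can be compared per length. By an estimate of depth from the steps in low values, each FPKM corresponds to about 21.0 to 27.3 fragments per kb of transcript. Between 12126 and 12518 genes reached 1 FPKM in a library. Summed over 10 ES cell markers, the level was 3423 to 5514 FPKM, and none of the markers was at 0 in both libraries of a group. Suv39h2 stood at 1.61 and 1.76 FPKM in shSuv39h2 against 4.80 and 4.78 FPKM in shNC, 35.1% of control (limma adjusted p = 0.000304). The Suv39h1 transcript had 4.91 and 5.10 FPKM in shSuv39h1 libraries against 8.58 and 7.52 FPKM in shNC libraries, 62.2% of control, which did not pass the test (limma adjusted p = 0.0877). It was also low in H3.1K36M, at 6.92 and 7.58 FPKM against 10.3 and 12.2 FPKM in H3.1WT, 64.4%, and that difference passed (log2 fold change −0.57, limma adjusted p = 0.0163).

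The annotated Rhox genes lie on chromosome X between 37213804 and 38129967 (GRCm38, GENCODE M21), over 916 kb, and all 8 members are protein-coding genes of this run. Promoter windows of 300 bases, 250 before and 50 after the transcript start, were available in the RefSeq table for 6 of the 8 members. They held 0 to 10 CpG dinucleotides, the site of DNA methylation in mammals, against a median of 7 over all 32851 windows of the table. Those of the 4 members that passed the test in H3.1K36M are shown 5′ to 3′ on the strand of the gene, from RefSeq on GRCm38.p6, with every CpG in capitals, because the members that moved together differ in CpG content.
Rhox1: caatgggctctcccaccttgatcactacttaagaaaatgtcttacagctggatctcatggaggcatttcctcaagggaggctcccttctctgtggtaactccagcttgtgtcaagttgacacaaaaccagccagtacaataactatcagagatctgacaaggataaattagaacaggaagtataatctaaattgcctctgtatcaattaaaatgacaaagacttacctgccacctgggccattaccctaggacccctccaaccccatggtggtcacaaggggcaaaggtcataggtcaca
Rhox2a: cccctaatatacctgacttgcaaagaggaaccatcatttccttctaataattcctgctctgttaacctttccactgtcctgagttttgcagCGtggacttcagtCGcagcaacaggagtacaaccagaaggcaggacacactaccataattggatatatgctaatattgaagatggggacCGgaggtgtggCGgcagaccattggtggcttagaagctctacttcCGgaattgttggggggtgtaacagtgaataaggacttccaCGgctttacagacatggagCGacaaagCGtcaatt
Rhox5: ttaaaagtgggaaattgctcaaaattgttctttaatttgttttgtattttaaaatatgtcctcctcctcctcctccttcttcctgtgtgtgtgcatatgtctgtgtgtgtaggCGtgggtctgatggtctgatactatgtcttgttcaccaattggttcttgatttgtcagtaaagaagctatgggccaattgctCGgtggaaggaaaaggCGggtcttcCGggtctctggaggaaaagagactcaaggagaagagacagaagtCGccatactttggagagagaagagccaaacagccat
Rhox13: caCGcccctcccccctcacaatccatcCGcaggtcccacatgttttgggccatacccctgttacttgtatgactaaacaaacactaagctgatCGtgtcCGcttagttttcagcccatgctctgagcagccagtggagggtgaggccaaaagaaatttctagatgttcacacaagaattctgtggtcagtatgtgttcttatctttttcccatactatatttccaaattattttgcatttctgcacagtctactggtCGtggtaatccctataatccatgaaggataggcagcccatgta
The Rhox1 window, chrX:37222209-37222508 on the minus strand, held no CpG. The Rhox2a window, chrX:37244742-37245041 on the plus strand, held 8 CpGs, an observed over expected ratio of 0.484, where the median window had 0.384. The Rhox5 window at chrX:37754358-37754657 on the plus strand held 5 (ratio 0.363), and the Rhox13 window at chrX:38120590-38120889 on the plus strand also held 5 (ratio 0.335). The RefSeq start of Rhox5 lies 50234 bases from the start of the gene in GENCODE M21, so the window shown covers only the more distant of these starts. Of the members not shown, the Rhox4b window held 10 CpGs and the Rhox10 window 9. The E-box CACGTG was searched on both strands and found in the Rhox4b window alone of these 6, while 7.15% of all windows hold it. GCGGGAA, an E2F type site, was in none of the 6 and in 4.6% of all windows, and CGCG was in none of the 6 and in 38% of all windows.

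Rhox5 was by far the most abundant member in every group. It lies at chromosome X 37804842 to 37808876 on the plus strand, was first described under the name Pem, and is known from ES cells, placenta and Sertoli cells. Rhox5 stood at 132 and 133 FPKM in H3.1K36M, 60.7 and 53.6 FPKM in H3.1K9M, and 52.4 and 52.7 FPKM in H3.1WT. In the hairpin lines it stood at 28.8 and 35.3 FPKM in shSuv39h2, 44.7 and 50.6 FPKM in shSuv39h1, and 84.1 and 82.6 FPKM in shNC. The order of group means was H3.1K36M, shNC, H3.1K9M, H3.1WT, shSuv39h1 and shSuv39h2, and no neighbours in that order overlapped. Rhox5 made up 63.4% to 78.4% of the summed FPKM of the 8 members. That sum was 188 and 190 FPKM in H3.1K36M, 78.8 and 71.5 FPKM in H3.1K9M, and 82.6 and 79.6 FPKM in H3.1WT. It was 36.8 and 47.8 FPKM in shSuv39h2, 69.7 and 75.8 FPKM in shSuv39h1, and 118 and 119 FPKM in shNC. The sum without Rhox5 kept H3.1K36M highest, at 55.2 and 56.8 FPKM, and shSuv39h2 lowest, at 7.97 and 12.5 FPKM.

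In the alpha part, Rhox1, a testis homeobox gene at chromosome X 37213804 to 37222258 on the minus strand, stood at 8.88 and 9.68 FPKM in H3.1K36M, 1.79 and 2.07 FPKM in H3.1K9M, and 4.23 and 3.01 FPKM in H3.1WT. It stood at 0.572 and 0.880 FPKM in shSuv39h2, 2.38 and 2.87 FPKM in shSuv39h1, and 5.73 and 5.01 FPKM in shNC. Its groups ran from H3.1K36M through shNC, H3.1WT, shSuv39h1 and H3.1K9M down to shSuv39h2, and no neighbours overlapped. Rhox2a, the first of 8 tandem Rhox2 copies (37244976 to 37249686, plus strand), stood at 10.7 and 11.2 FPKM in H3.1K36M, 0.597 and 0.330 FPKM in H3.1K9M, and 0.922 and 0.338 FPKM in H3.1WT. It stood at 0.0607 and 0.114 FPKM in shSuv39h2, 0.397 and 0.410 FPKM in shSuv39h1, and 1.16 and 0.619 FPKM in shNC. Only the H3.1K36M libraries were well above 1 FPKM, and shNC overlapped H3.1WT, H3.1WT overlapped H3.1K9M and H3.1K9M overlapped shSuv39h1. The shSuv39h2 values of Rhox2a rest on about 1.2 and 2.4 fragments, the H3.1K36M values on about 207 and 209. Rhox4b, known as Ehox from work on differentiating ES cells, was listed at 0 in 7 of 12 libraries. Its highest values, 0.107 and 0.278 FPKM in H3.1K36M, correspond to about 2.3 and 5.8 fragments, and it was not tested.

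In the beta part, Rhox6 and Rhox9 (first named Psx1 and Psx2 for their expression in placenta) had their highest level in shNC. Rhox6 (37826910 to 37829857, plus strand) stood at 7.89 and 7.17 FPKM in H3.1K36M, 5.93 and 4.49 FPKM in H3.1K9M, and 5.21 and 5.05 FPKM in H3.1WT. It stood at 1.97 and 3.41 FPKM in shSuv39h2, 6.05 and 6.06 FPKM in shSuv39h1, and 9.96 and 13.3 FPKM in shNC. H3.1K9M and H3.1WT were the only overlapping neighbours among the groups. Rhox9 (37899097 to 37901770, minus strand) stood at 7.27 and 7.55 FPKM in H3.1K36M, 6.09 and 4.90 FPKM in H3.1K9M, and 7.17 and 6.49 FPKM in H3.1WT. It stood at 3.12 and 4.35 FPKM in shSuv39h2, 4.71 and 5.03 FPKM in shSuv39h1, and 10.9 and 11.1 FPKM in shNC. The overexpression groups of Rhox9 lay close together, and among neighbours H3.1K9M overlapped shSuv39h1. Of the 50-base stretches of the Rhox6 transcript 16.5% also occur in Rhox9, and 4.7% of those of Rhox9 in Rhox6, so a part of their fragments could be assigned to either gene.

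In the gamma part, Rhox10 (38066475 to 38071691, plus strand), expressed in spermatogonia and known for a role in founding the spermatogonial stem cell pool, stood at 10.4 and 10.5 FPKM in H3.1K36M, 2.17 and 3.60 FPKM in H3.1K9M, and 8.09 and 6.89 FPKM in H3.1WT. It stood at 1.33 and 2.55 FPKM in shSuv39h2, 8.47 and 7.67 FPKM in shSuv39h1, and 3.48 and 3.86 FPKM in shNC. Among the 7 members with enough signal to be tested, only Rhox10 had shSuv39h1 second in the order, overlapping H3.1WT, and shNC overlapped H3.1K9M, which overlapped shSuv39h2. Rhox13 (38121219 to 38129967, plus strand), a gene of male germ cells, stood at 9.98 and 10.4 FPKM in H3.1K36M, 1.47 and 2.51 FPKM in H3.1K9M, and 4.63 and 5.12 FPKM in H3.1WT. It stood at 0.915 and 1.18 FPKM in shSuv39h2, 2.96 and 3.09 FPKM in shSuv39h1, and 2.88 and 2.48 FPKM in shNC. Its groups were separate except for shNC and H3.1K9M. The transcripts of Rhox1, Rhox5, Rhox10 and Rhox13 share no 50-base stretch with another annotated gene.

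**Figure D1:**
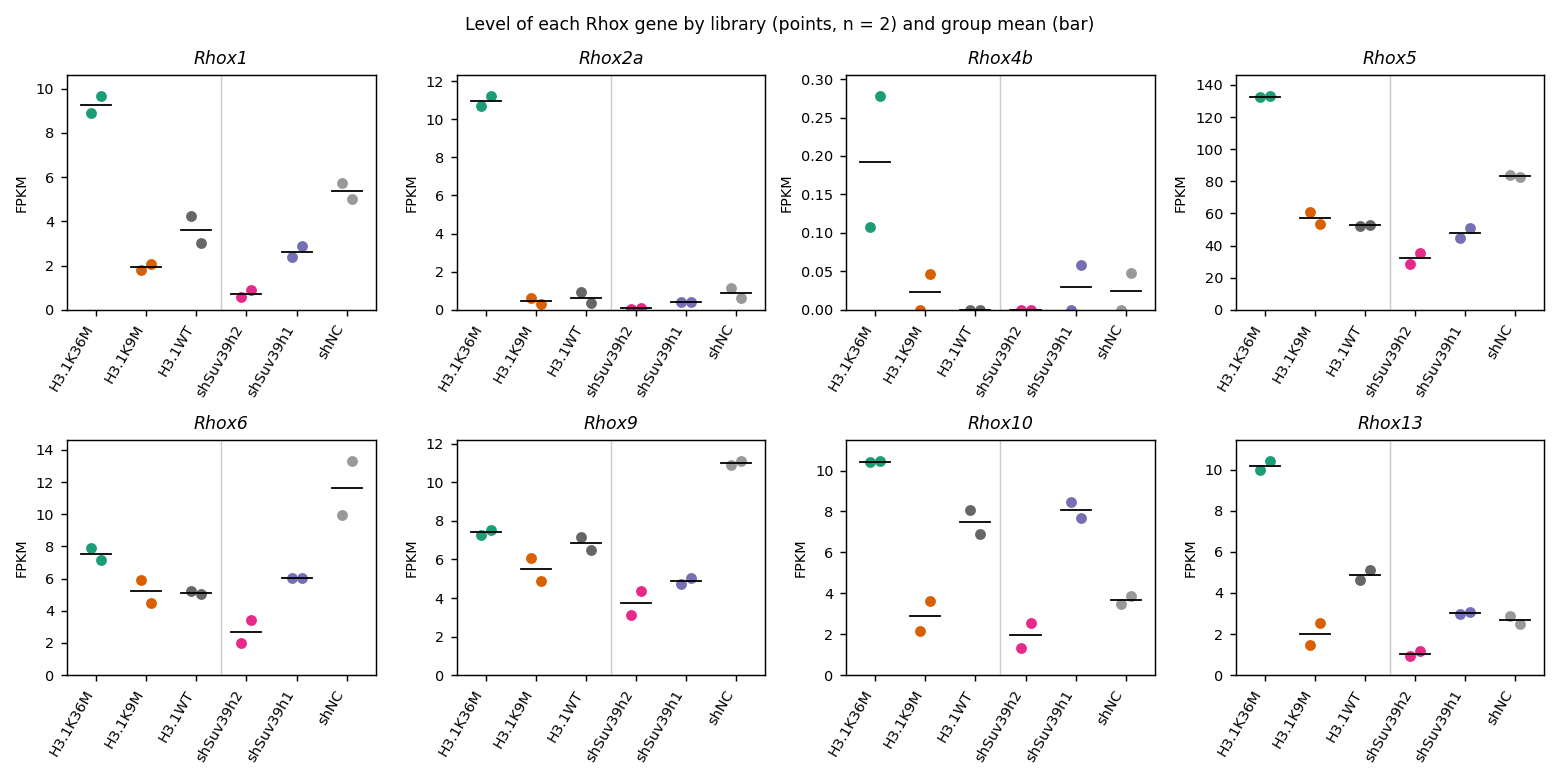
Level of each of the 8 Rhox genes in FPKM (y axis, own scale per gene) in the 6 groups, with a point for each of the 2 libraries and a bar at the group mean. H3.1K36M is highest for Rhox1, Rhox2a, Rhox4b, Rhox5, Rhox10 and Rhox13, shNC is highest for Rhox6 and Rhox9, and shSuv39h2 has the lowest mean of every gene but Rhox4b, where it ties with H3.1WT at 0.

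Tests used limma on log2(FPKM + 1) over the 13109 genes that reached 1 FPKM in 2 or more libraries, with p-values adjusted by the Benjamini-Hochberg method over all of them and a threshold of 0.05. Fold changes on that scale understate the change of low genes. Of the 8 members 7 were tested, and Rhox4b was not. Rhox1, Rhox5, Rhox6, Rhox9, Rhox10 and Rhox13 reached 1 FPKM in every library outside shSuv39h2, whereas Rhox2a reached it only in both H3.1K36M libraries and 1 shNC library, so its entry into the test depends on the group in which it is high. In comparisons with H3.1K36M, Rhox2a is therefore left out of the counts and medians of the members.

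H3.1K36M was set against H3.1WT to ask which transcripts differ when methylation of lysine 36 is targeted. Rhox2a, Rhox5, Rhox1 and Rhox13 rose, so that members of the alpha, beta and gamma parts were among those that passed, while Rhox6, Rhox9 and Rhox10 did not pass. Without Rhox2a, 3 of 6 tested members rose, where 3.1% of all tested genes did, and none fell. Rhox2a averaged 10.95 ± 0.384 FPKM in H3.1K36M and 0.630 ± 0.413 FPKM in H3.1WT (SD, n = 2 each), 17.4-fold higher, with a log2 fold change of 2.90 (SE 0.189, limma adjusted p = 6.99e-05). Rhox5 averaged 133 ± 0.565 FPKM in H3.1K36M and 52.5 ± 0.227 FPKM in H3.1WT, 2.53-fold higher, with a log2 fold change of 1.32 (SE 0.106, limma adjusted p = 0.000172). Rhox1 averaged 9.28 ± 0.560 FPKM in H3.1K36M and 3.62 ± 0.864 FPKM in H3.1WT, a log2 fold change of 1.16 (SE 0.152, limma adjusted p = 0.00321). The change of Rhox13 was smaller, with 10.2 ± 0.303 FPKM in H3.1K36M and 4.87 ± 0.348 FPKM in H3.1WT and a log2 fold change of 0.93 (SE 0.157, limma adjusted p = 0.0107). Rhox6, Rhox10 and Rhox9 had log2 fold changes of 0.48, 0.43 and 0.10 (limma adjusted p = 0.198, 0.278 and 0.708). All 6 of these members had both H3.1K36M libraries above both H3.1WT libraries, which held for 38.2% of all tested genes, and their median log2 fold change was 0.70 against 0.03 over all genes. Rhox13 no longer passed without any 1 of the 4 libraries, H3.1K36M 1 or 2 or H3.1WT 1 or 2 (limma adjusted p = 0.0543 to 0.112). Rhox6 and Rhox10 passed with array quality weights (limma adjusted p = 0.0276 and 0.0496) and in a fit to these 4 libraries alone (limma adjusted p = 0.0236 and 0.0359).

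Markers of other cells moved beside these genes. Of 15 tested fibroblast feeder markers 3 rose in H3.1K36M, and the summed level of the list was 1343 to 1390 FPKM in H3.1K36M and 655 to 1085 FPKM in H3.1WT. With the mean feeder marker level as a covariate, the log2 fold changes were 3.09 for Rhox2a, 1.49 for Rhox1, 1.32 for Rhox5 and 1.18 for Rhox13, and all 4 passed (limma adjusted p = 0.000474, 0.00117, 0.0022 and 0.012). Of 10 germ cell markers 2 rose, and their summed level was 156 to 158 FPKM in H3.1K36M and 113 to 117 FPKM in H3.1WT. Of 7 tested trophoblast markers 1 rose and 5 fell, with the list at 39.6 to 42.7 FPKM in H3.1K36M and 124 to 129 FPKM in H3.1WT. The trophoblast marker Tpbpa was listed at 0 in both libraries of every group but shSuv39h2, so also in H3.1WT. Prl3d1 was listed at 0 in both libraries of H3.1K36M and in both of H3.1K9M. Of 6 tested markers of extraembryonic endoderm 1 rose and 1 fell, with the list at 30.7 to 31.3 FPKM in H3.1K36M and 16.0 to 19.4 FPKM in H3.1WT. Of the ES cell markers 1 of 10 rose and of the Y-linked genes 1 of 5, at 40.5 to 40.9 FPKM in H3.1K36M and 37.3 to 38.1 FPKM in H3.1WT. The feeder covariate is fitted beside the group means, so it rests only on differences between the libraries of a group. The part of the feeder, germ cell, trophoblast, endoderm, ES cell and Y-linked genes in the Rhox result was not tested. In bulk libraries, fewer cells with a transcript and less transcript per cell cannot be told apart.

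H3.1K9M was set against H3.1WT to ask the same for lysine 9. Rhox13 fell, and it was the only member of the 7 tested that passed, where 0.29% of all tested genes fell. Rhox13 averaged 1.99 ± 0.741 FPKM in H3.1K9M and 4.87 ± 0.348 FPKM in H3.1WT (SD, n = 2 each), a log2 fold change of −0.995 (SE 0.157, limma adjusted p = 0.0342). Its gamma neighbour Rhox10 averaged 2.89 ± 1.01 FPKM in H3.1K9M and 7.49 ± 0.844 FPKM in H3.1WT, with a log2 fold change of −1.15 that did not pass (SE 0.21, limma adjusted p = 0.0691). For Rhox1 the log2 fold change was −0.65 (limma adjusted p = 0.184). Rhox9, Rhox2a, Rhox6 and Rhox5 lay between −0.27 and 0.12, with limma adjusted p from 0.484 to 0.990. Both H3.1K9M libraries lay below both H3.1WT libraries for Rhox1, Rhox9, Rhox10 and Rhox13, 4 of 7, against 20.6% of all tested genes, and above them for Rhox5, against 14.6%. The median of the 7 was −0.27, and −0.01 over all genes. The Rhox13 call was lost in 6 other settings (limma adjusted p = 0.0605 to 0.858) and without H3.1WT library 1, H3.1WT library 2 or H3.1K9M library 1 (0.265, 0.232 and 0.0688). Without H3.1K9M library 2 it passed (0.0143), as did Rhox10 (0.0277), and 695 genes were called in place of 41. The summed feeder level was 1089 to 1924 FPKM in H3.1K9M and 655 to 1085 FPKM in H3.1WT, none of the 15 markers passed, and with the feeder covariate the Rhox13 change was −0.79 (limma adjusted p = 0.147). Germ cell markers summed to 81.4 to 116 FPKM in H3.1K9M and 113 to 117 FPKM in H3.1WT, and 1 of 10 fell. Y-linked genes summed to 24.1 to 30.3 FPKM in H3.1K9M and 37.3 to 38.1 FPKM in H3.1WT, and 1 of 5 fell. The part of both lists was not tested.

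Set against H3.1K9M, which shares the lysine-to-methionine form at another position, H3.1K36M had higher levels of Rhox1, Rhox5, Rhox10 and Rhox13, 4 of 6 tested members without Rhox2a, where 5.57% of all tested genes rose. Rhox2a was higher as well. The log2 fold changes were 3.04 for Rhox2a (SE 0.189), 1.93 for Rhox13 (SE 0.157), 1.81 for Rhox1 (SE 0.152), 1.58 for Rhox10 (SE 0.21) and 1.20 for Rhox5 (SE 0.106), with limma adjusted p from 3.56e-05 to 0.002. Rhox6 and Rhox9 had log2 fold changes of 0.47 and 0.38 (limma adjusted p = 0.180 and 0.125). Both H3.1K36M libraries lay above both H3.1K9M libraries for all 6 of these members, and for 31.5% of all tested genes. Their median was 1.39, and 0.03 for all genes. This comparison uses the same H3.1K36M libraries as the one with H3.1WT, so the 2 sets of values are not independent. In the fit to these 4 libraries alone Rhox10 did not pass (limma adjusted p = 0.0623). Trophoblast markers summed to 39.6 to 42.7 FPKM in H3.1K36M and 88.6 to 122 FPKM in H3.1K9M, and 1 of 7 tested rose and 5 fell. Germ cell markers summed to 156 to 158 FPKM in H3.1K36M and 81.4 to 116 FPKM in H3.1K9M, and 2 of 10 rose. Of the ES cell markers 4 of 10 rose, of the endoderm markers 1 of 6 tested, and of the Y-linked genes 3 of 5, at 40.5 to 40.9 FPKM in H3.1K36M and 24.1 to 30.3 FPKM in H3.1K9M. Of 433 tested X-linked genes outside the family 14.1% rose and 3.46% fell, where 2.67% of all tested genes fell. The part of these lists in the Rhox result was not tested.

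shSuv39h2 was set against shNC to ask which transcripts differ when Suv39h2 is reduced. Rhox1, Rhox6, Rhox5, Rhox9, Rhox13 and Rhox2a fell, 6 of the 7 tested members, where 4.69% of all tested genes fell. No member rose. Rhox1 averaged 0.726 ± 0.218 FPKM in shSuv39h2 and 5.37 ± 0.506 FPKM in shNC (SD, n = 2 each), 13.5% of control, with a log2 fold change of −1.89 (SE 0.152, limma adjusted p = 0.00025). The placental genes followed, with Rhox6 at 2.69 ± 1.02 FPKM in shSuv39h2 and 11.6 ± 2.36 FPKM in shNC (log2 fold change −1.79, SE 0.192, limma adjusted p = 0.000954). Rhox9 averaged 3.74 ± 0.870 FPKM in shSuv39h2 and 10.99 ± 0.135 FPKM in shNC (log2 fold change −1.35, SE 0.135, limma adjusted p = 0.000681). Rhox5 averaged 32.1 ± 4.59 FPKM in shSuv39h2 and 83.3 ± 1.06 FPKM in shNC, 38.5% of control (log2 fold change −1.36, SE 0.106, limma adjusted p = 0.00025). Rhox13 and Rhox2a had log2 fold changes of −0.85 and −0.78 (limma adjusted p = 0.0104 and 0.0297). Rhox10 averaged 1.94 ± 0.868 FPKM in shSuv39h2 and 3.67 ± 0.272 FPKM in shNC, a log2 fold change of −0.70 that did not pass (limma adjusted p = 0.0673). Both shSuv39h2 libraries lay below both shNC libraries for all 7 tested members, and for 21.3% of all tested genes, and the medians were −1.35 and 0.04. The Rhox2a call was lost with a 5 FPKM filter, quantile scaling, array weights or these 4 libraries alone (limma adjusted p = 0.0602 to 0.157) and without shNC library 1 or either shSuv39h2 library (0.12 to 0.168). Rhox13 was lost with these 4 libraries alone (0.0611) and without shNC library 1 or shSuv39h2 library 1 (0.0637 and 0.0816), and Rhox10 passed with the feeder covariate (0.0284) and without shSuv39h2 library 2 (0.0393).

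Other gene lists moved in the same comparison. Of 5 Y-linked genes 4 fell, with a summed level of 8.73 to 8.81 FPKM in shSuv39h2 and 34.4 to 38.1 FPKM in shNC. Of 433 tested X-linked genes outside the family, 20 rose and 43 fell, which is 4.62% and 9.93%, where 5.35% of all tested genes rose and 4.69% fell. Germ cell markers summed to 78.9 to 82.4 FPKM in shSuv39h2 and 99.5 to 103 FPKM in shNC, and 1 of 10 rose and 1 fell. Trophoblast markers did not pass in either direction, at 54.4 to 55.3 FPKM in shSuv39h2 and 48.0 to 54.4 FPKM in shNC. Extraembryonic endoderm markers summed to 20.4 to 23.5 FPKM in shSuv39h2 and 17.2 to 17.9 FPKM in shNC, and 2 of 6 tested rose. ES cell markers summed to 5278 to 5514 FPKM in shSuv39h2 and 4596 to 4951 FPKM in shNC, and 3 of 10 rose. Feeder markers summed to 827 to 1062 FPKM in shSuv39h2 and 767 to 989 FPKM in shNC, and 1 of 15 fell. With the feeder covariate all 7 tested members passed. That covariate rests only on differences between the libraries of a group. The part of the feeder, Y-linked, X-linked, germ cell, endoderm and ES cell genes in the Rhox result was not tested.

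shSuv39h1 was set against shNC to ask the same for Suv39h1, whose own transcript did not pass in these libraries. Rhox5 and Rhox9, both of the beta part, fell, 2 of 7 tested members where 0.061% of all tested genes fell. The same shNC libraries were set against shSuv39h2, so the falls under these hairpins are not independent. Rhox5 averaged 47.7 ± 4.19 FPKM in shSuv39h1 and 83.3 ± 1.06 FPKM in shNC (SD, n = 2 each), a log2 fold change of −0.80 (SE 0.106, limma adjusted p = 0.0351). Rhox9 averaged 4.87 ± 0.229 FPKM in shSuv39h1 and 10.99 ± 0.135 FPKM in shNC, a log2 fold change of −1.03 (SE 0.135, limma adjusted p = 0.035). Rhox6, Rhox1 and Rhox2a had log2 fold changes of −0.83, −0.81 and −0.42 (limma adjusted p = 0.172, 0.0885 and 0.484). The gamma genes had values of the other sign, 0.96 for Rhox10 (limma adjusted p = 0.145) and 0.13 for Rhox13 (limma adjusted p = 0.824). The control line H3.1WT, set against the same shNC libraries, had the same sign as shSuv39h1 for all 7 tested members. Its log2 fold changes were −0.66 for Rhox5, −0.62 for Rhox9, 0.86 for Rhox10 and 0.68 for Rhox13. The part of the shNC levels in this pattern was not tested. Both shSuv39h1 libraries lay below both shNC libraries for the 5 alpha and beta members tested, against 12.7% of all tested genes, and above them for the 2 gamma members, against 26.8%. The median was −0.80 for the members and 0.04 for all genes. Both calls were lost with no filter, a replicate block or these 4 libraries alone (limma adjusted p = 0.0538 to 0.217) and without any 1 of the 4 libraries, shSuv39h1 1 or 2 or shNC 1 or 2 (0.0645 to 0.372). With the feeder covariate Rhox1 also passed (limma adjusted p = 0.0219), the summed feeder level being 527 to 784 FPKM in shSuv39h1 and 767 to 989 FPKM in shNC. Y-linked genes summed to 18.9 to 19.3 FPKM in shSuv39h1 and 34.4 to 38.1 FPKM in shNC, and 2 of 5 fell. Extraembryonic endoderm markers summed to 27.7 to 27.8 FPKM in shSuv39h1 and 17.2 to 17.9 FPKM in shNC, and 1 of 6 tested rose (limma adjusted p = 0.0224). The part of both lists was not tested.

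**Figure D2:**
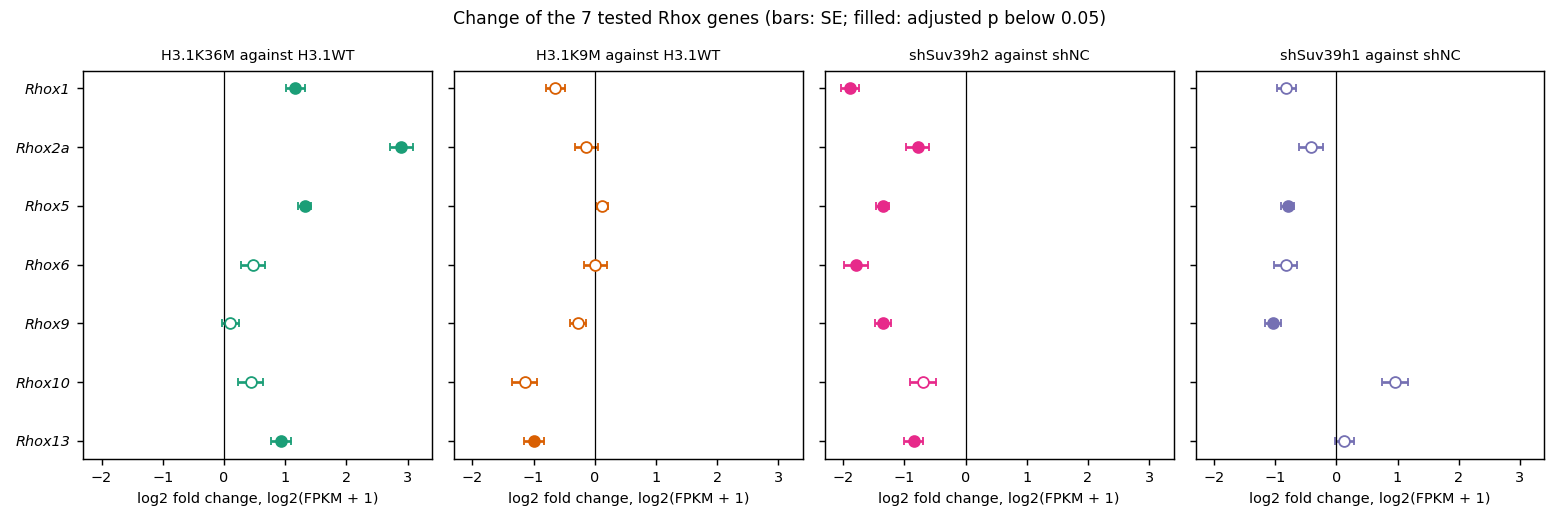
Log2 fold change of the 7 tested Rhox genes on the log2(FPKM + 1) scale (x axis) in the 4 comparisons with a control line, with bars for the SE and filled points for an adjusted p below 0.05. In H3.1K36M all points lie right of 0 and 4 are filled. Without Rhox2a, whose entry into the test depends on the H3.1K36M libraries, 3 of 6 are filled, where 3.1% of all tested genes rose. In H3.1K9M only Rhox13 is filled, where 0.29% of all tested genes fell. In shSuv39h2 all lie left of 0 and 6 are filled, where 4.69% of all tested genes fell. In shSuv39h1 Rhox5 and Rhox9 are filled, where 0.061% of all tested genes fell, and the gamma genes Rhox10 and Rhox13 lie right of 0.

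The direct comparison of shSuv39h2 with shSuv39h1 tested the difference between the hairpins. Rhox10, Rhox1, Rhox13, Rhox6 and Rhox5 were lower in shSuv39h2, 5 of 7 tested members where 4.56% of all tested genes fell. Rhox10 averaged 1.94 ± 0.868 FPKM in shSuv39h2 and 8.07 ± 0.563 FPKM in shSuv39h1 (SD, n = 2 each), a log2 fold change of −1.66 (SE 0.21, limma adjusted p = 0.00398). The log2 fold changes of Rhox1, Rhox13, Rhox6 and Rhox5 were −1.07, −0.98, −0.96 and −0.56 (limma adjusted p = 0.00555, 0.00976, 0.0207 and 0.017). Rhox2a and Rhox9 had −0.37 and −0.32 (limma adjusted p = 0.300 and 0.204). Both shSuv39h2 libraries lay below both shSuv39h1 libraries for all 7 tested members, and for 30.0% of all tested genes, and the medians were −0.96 and 0.00. Without shSuv39h1 library 1, shSuv39h1 library 2 or shSuv39h2 library 1 the number of members called was 2, 1 and 1, and Rhox10 was called in each (limma adjusted p at most 0.0456). Y-linked genes summed to 8.73 to 8.81 FPKM in shSuv39h2 and 18.9 to 19.3 FPKM in shSuv39h1, and 2 of 5 fell. Germ cell markers summed to 78.9 to 82.4 FPKM in shSuv39h2 and 91.6 to 105 FPKM in shSuv39h1, and 2 of 10 fell. Endoderm markers summed to 20.4 to 23.5 FPKM in shSuv39h2 and 27.7 to 27.8 FPKM in shSuv39h1, and 1 of 6 tested rose and 1 fell. Of the X-linked genes outside the family 0.924% rose and 8.08% fell, where 2.00% of all tested genes rose. The part of these lists was not tested.

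The control lines themselves differed for Rhox5. H3.1WT had 52.5 ± 0.227 FPKM and shNC 83.3 ± 1.06 FPKM (SD, n = 2 each), a log2 fold change of −0.66 (SE 0.106, limma adjusted p = 0.0424), and it was the only 1 of 7 tested members that passed, where 0.122% of all tested genes fell. Rhox6, Rhox9, Rhox1 and Rhox2a had log2 fold changes of −1.03, −0.62, −0.47 and −0.22, and Rhox10 and Rhox13 had 0.86 and 0.68, with limma adjusted p from 0.0748 to 0.685. H3.1WT and shNC libraries did not overlap for 6 of the 7, with H3.1WT lower for 4, against 16.3% of all tested genes, and higher for 2, against 23.1%. The Rhox5 call was lost with no filter, array weights, a replicate block or these 4 libraries alone (limma adjusted p = 0.0546 to 0.282) and without any 1 of them (0.0539 to 0.338), while Rhox6 passed with the feeder covariate (0.0374). The sources used here do not say whether the authors scaled the libraries of both arms together, so levels set across the arms carry that uncertainty. Trophoblast markers summed to 124 to 129 FPKM in H3.1WT and 48.0 to 54.4 FPKM in shNC, and 4 of 7 tested were higher; their part was not tested.

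Beyond the 8 members, 23 further Rhox symbols are listed, of which 7 were at 0 in all libraries, 12 were above 0 somewhere without reaching 1 FPKM in 2 libraries, and 4 were tested. The 4 are Rhox2b, Rhox2c, Rhox2d and Rhox2h, tandem copies of Rhox2a. Rhox2b stood at 2.02 and 2.03 FPKM, Rhox2c at 1.64 and 2.04 FPKM, Rhox2d at 1.17 and 1.02 FPKM and Rhox2h at 1.52 and 1.05 FPKM in H3.1K36M. None of them passed 0.205 FPKM in any other library. They entered the test only through the H3.1K36M libraries, so the fact that all 4 passed against H3.1WT, with log2 fold changes of 1.46, 1.46, 1.07 and 0.96 (limma adjusted p = 0.000161, 0.000172, 0.000717 and 0.0033), is no separate support. Summed over the 8 Rhox2 copies, the level was 18.9 and 19.5 FPKM in H3.1K36M, 0.952 and 0.601 FPKM in H3.1K9M, and 1.25 and 0.751 FPKM in H3.1WT. It was 0.122 and 0.114 FPKM in shSuv39h2, 0.466 and 0.545 FPKM in shSuv39h1, and 1.67 and 1.01 FPKM in shNC. Of the 50-base stretches of the Rhox2a transcript 93.4% occur in at least 1 of the 7 other copies, so the split between copies is uncertain, and the sum shows the same single high group. The 7 Rhox4 copies summed to 1.69 and 1.57 FPKM in H3.1K36M and 0.397 and 0.632 FPKM in H3.1WT, with at most 0.39 FPKM in the libraries of the other 4 groups.

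**Figure D3:**
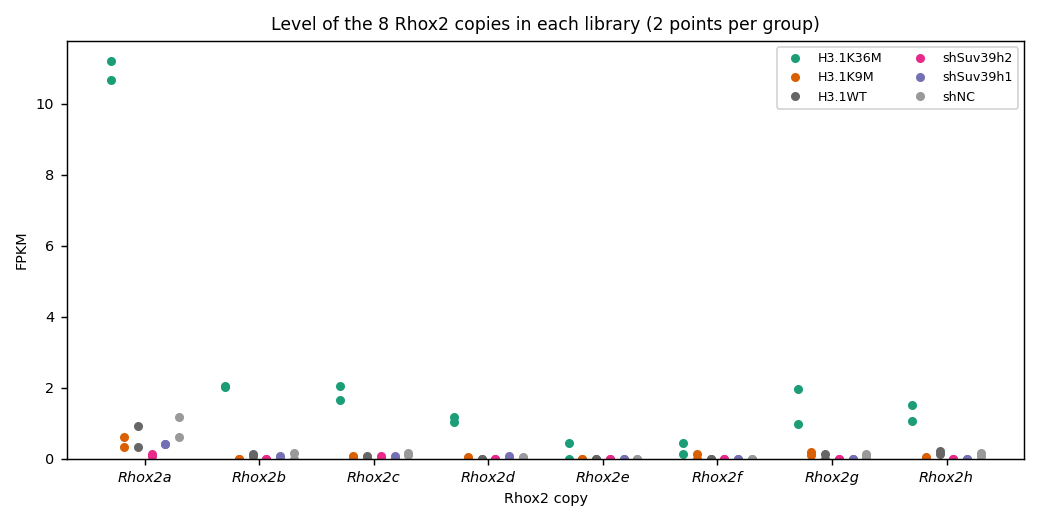
Level in FPKM (y axis) of the 8 Rhox2 copies (x axis), with 2 points per group, 1 for each library, coloured by group. The highest point of each copy is an H3.1K36M library, at 11.2 FPKM for Rhox2a and at or below 2.04 FPKM for the others, although Rhox2e was at 0 in 1 of the 2 H3.1K36M libraries.

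The nearest protein-coding genes outside the family were examined to see where the change ended. Of 5 on each side, 7 of 10 were tested. Gm9, whose start lies 11.2 kb outside that of Rhox1, stood at 7.36 and 7.00 FPKM in H3.1K36M, 0.578 and 0.598 FPKM in H3.1K9M, and 1.04 and 1.17 FPKM in H3.1WT. It stood at 0.147 and 0.207 FPKM in shSuv39h2, 0.748 and 0.688 FPKM in shSuv39h1, and 1.73 and 1.41 FPKM in shNC. Gm9 rose in H3.1K36M against H3.1WT (log2 fold change 1.96, limma adjusted p = 2.24e-05) and fell in shSuv39h2 against shNC (log2 fold change −1.12, limma adjusted p = 0.000515), as did its neighbours Rhox1 and Rhox2a. No other flanking gene passed in H3.1K36M, and none passed in H3.1K9M or shSuv39h1 against its control. In shSuv39h2, Rnf113a1 stood at 6.84 and 6.13 FPKM against 3.05 and 4.37 FPKM in shNC, and rose (log2 fold change 0.68, limma adjusted p = 0.0479). Zbtb33, which encodes the methyl-CpG binding protein Kaiso and lies beyond Rhox13, stood at 3.63 and 3.26 FPKM in shSuv39h2 against 2.08 and 1.92 FPKM in shNC, and rose (log2 fold change 0.57, limma adjusted p = 0.00791). Of the 433 tested X-linked genes outside the family, 41 rose and 10 fell in H3.1K36M against H3.1WT, 9.47% and 2.31%. Of all tested genes, 3.1% rose and 1.74% fell there. In H3.1K9M against H3.1WT 5 of the X-linked genes fell, 1.15%, where 0.29% of all tested genes fell. The part of these X-linked genes in the Rhox result was not tested.

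**Figure D4:**
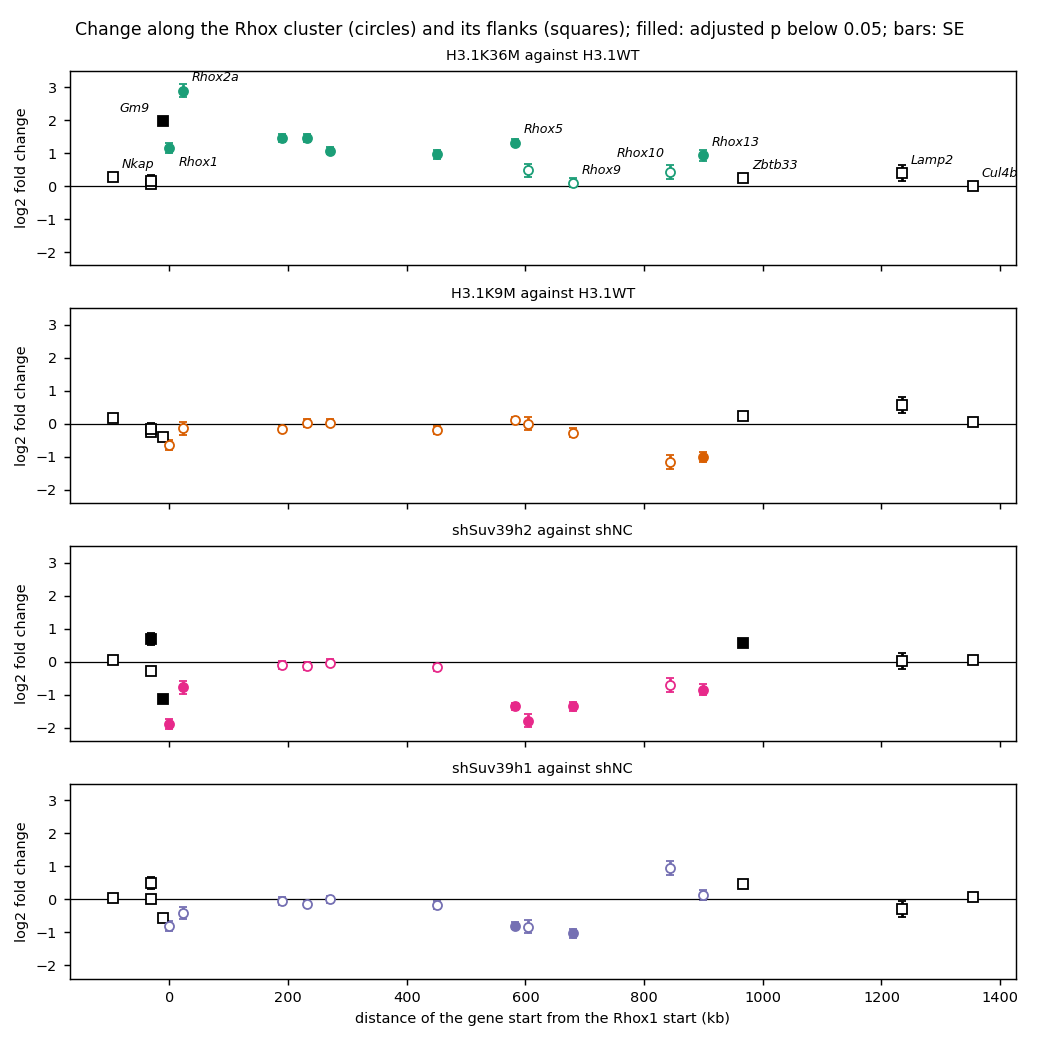
Log2 fold change on the log2(FPKM + 1) scale (y axis) by the distance of the gene start from that of Rhox1 in kb (x axis), for tested Rhox genes (circles) and flanking genes (squares), with bars for the SE and filled symbols for an adjusted p below 0.05. In H3.1K36M the filled symbols run from Gm9 to Rhox5, with Rhox13 filled at the far end. Among them, Rhox2b, Rhox2c, Rhox2d and Rhox2h share sequence with Rhox2a and entered the test only through the H3.1K36M libraries. Their filled symbols are no separate support, and the entry of Rhox2a also depends on those libraries. In shSuv39h2 Gm9 lies below 0 while Rnf113a1 and Zbtb33 lie above it.

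Genes of DNA methylation and of germline gene repression were compared with the same fit. The DNA methylation list also holds Tet1, Tet2 and Tet3, which act in its removal, so its counts and medians pool both kinds. Of its 10 genes, 1 rose and 1 fell in H3.1K36M against H3.1WT, where 3.1% of all tested genes rose and 1.74% fell. The median log2 fold change of the list was 0.09 and that of all genes 0.03. Zfp57, a zinc finger protein that protects methylation at imprinted loci, averaged 154 ± 0.373 FPKM in H3.1K36M and 121 ± 1.80 FPKM in H3.1WT (SD, n = 2 each, limma adjusted p = 0.0471). Dnmt3a, a de novo DNA methyltransferase, averaged 20.2 ± 0.0791 FPKM in H3.1K36M and 27.8 ± 0.200 FPKM in H3.1WT and fell (limma adjusted p = 0.0473). In shSuv39h2, Zfp57 rose, at 178 ± 0.574 FPKM against 141 ± 9.12 FPKM in shNC (limma adjusted p = 0.0282), and no other gene of the list passed. Hells, a chromatin remodeller needed for DNA methylation, averaged 83.5 ± 8.58 FPKM in shSuv39h2 and 63.3 ± 10.9 FPKM in shNC (limma adjusted p = 0.0736), and Dnmt1, the maintenance methyltransferase, averaged 65.5 ± 1.52 FPKM in shSuv39h2 and 54.5 ± 1.38 FPKM in shNC (limma adjusted p = 0.139). No gene of the list passed in H3.1K9M or shSuv39h1 against its control, where the medians were −0.08 and 0.05.

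Of 17 genes of complexes that repress germline genes in ES cells, 3 rose and 1 fell in shSuv39h2 against shNC. Those are 17.6% and 5.88% of the list, where 5.35% of all tested genes rose and 4.69% fell. None passed in H3.1K36M, H3.1K9M or shSuv39h1 against its control. Pcgf6, a subunit of a non-canonical Polycomb complex, averaged 26.6 ± 1.57 FPKM in shSuv39h2 and 17.4 ± 2.34 FPKM in shNC (SD, n = 2 each) and rose (log2 fold change 0.59, limma adjusted p = 0.0115). Ehmt2, which encodes the H3K9 methyltransferase G9a, averaged 70.6 ± 1.46 FPKM in shSuv39h2 and 56.6 ± 5.01 FPKM in shNC and rose (limma adjusted p = 0.0381). Ring1, an E3 ligase subunit of Polycomb complexes, averaged 4.30 ± 0.490 FPKM in shSuv39h2 and 2.70 ± 0.123 FPKM in shNC and rose (limma adjusted p = 0.0434). Atf7ip, a partner of the H3K9 methyltransferase Setdb1, averaged 15.1 ± 0.435 FPKM in shSuv39h2 and 18.6 ± 0.615 FPKM in shNC and fell (limma adjusted p = 0.0466). The median of the list was 0.11 in that comparison, against 0.04 over all genes. Both lists were also counted in the comparisons without a control line. H3.1K36M against H3.1K9M had 1 of the 10 DNA methylation genes higher and none lower, and 1 of the 17 repressors higher and 1 lower. Of all tested genes, 5.57% were higher and 2.67% lower there. shSuv39h2 against shSuv39h1 had 1 gene of each list higher and none lower, where 2.00% of all tested genes were higher. Between the control lines, H3.1WT against shNC had 1 of the 10 DNA methylation genes lower (limma adjusted p = 0.0428). There 0.122% of all tested genes were lower, and no repressor passed.

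The members' patterns over the 12 libraries were also compared as a description, on log2(FPKM + 1). Over the 21 pairs of tested members Pearson's r ran between 0.309 for Rhox9 with Rhox10 and 0.940 for Rhox1 with Rhox5, with a median of 0.766. Rhox2a, whose entry into the test depends on H3.1K36M, is included in these pairs and in the mean of the members used below. The r over pairs of other genes was not computed, so these values have no background beside them. Within the beta part r was 0.908 for Rhox6 with Rhox9, 0.766 for Rhox5 with Rhox6 and 0.752 for Rhox5 with Rhox9, and in the gamma part it was 0.886 for Rhox10 with Rhox13, so the closest pair crossed the parts. Among 463 genes outside the family with a range of at least 1 log2 unit between group means and at least 3 FPKM in 1 library, those most like the mean of the members were Zscan4a (0.977), Tmem92 (0.956), Smoc1 (0.953), Tek (0.953) and Arl14epl (0.953). Zscan4a, a zinc finger gene of the 2-cell embryo, averaged 8.998 ± 1.35 FPKM in H3.1K36M, 1.71 ± 0.380 FPKM in H3.1K9M, and 3.16 ± 0.799 FPKM in H3.1WT (SD, n = 2 each). It averaged 0.457 ± 0.350 FPKM in shSuv39h2, 2.16 ± 0.0223 FPKM in shSuv39h1, and 3.83 ± 1.62 FPKM in shNC, so that H3.1K36M was highest and shSuv39h2 lowest, as for Rhox1. Those most like Rhox5 were Naaa (0.970), Zscan4a (0.927), Wfdc15a (0.923), Smoc1 (0.922) and Lrrn4 (0.914). None of these 8 genes lies on chromosome X. Provisional symbols, such as Gm numbers and Rik names, were left out before ranking. The X-linked Gm9, whose group means also ran from H3.1K36M down to shSuv39h2, was therefore not ranked. These libraries share 6 groups and any difference in depth or culture, so r mostly records how the groups differ.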

How the data were processed

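RNA was extracted with Trizol and mRNA was captured before library preparation, per the labels' protocols, which list a NEBNext Ultra kit as well as a TruSeq v2 kit. The authors deposited a table of gene symbols for each of 12 libraries, and its FPKM values were used unchanged. The unit was read from the values, whose smallest steps scale with transcript length. Per the submitters' processing notes the tools were TopHat2 2.0.13 and Cuffdiff 2.2.1 on mm10. The sources used here do not give their settings, the annotation, the treatment of fragments that match several copies or the scaling between libraries.

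Since the files hold no read counts, limma 3.58.1 in R 4.3.3 was run with an intensity trend on log2(FPKM + 1). A single fit over 12 libraries with a mean for each of 6 groups left 6 residual degrees of freedom. The 13109 genes that reached 1 FPKM in 2 or more libraries were tested in 7 comparisons, two-sided, with Benjamini-Hochberg adjustment over all of them and a threshold of 0.05. Groups of 2 share an estimate of the spread, which averages over groups that vary differently.

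The 8 members and all gene lists were chosen with earlier results of these data known. The rule named the members in every comparison, further Rhox symbols by prefix as counts with values for those tested, the 5 nearest protein-coding genes on each side where they passed, up to 4 genes of each regulator list with the smallest adjusted p, and the 5 genes most alike to the members' mean and to Rhox5. The alternatives were a pseudocount of 0.1, no filter, a filter of 5 FPKM, array quality weights, a replicate block, quantile or median-of-ratios scaling, fits to the groups compared alone, a feeder marker covariate and leaving out each library. Positions are from GENCODE M21, stretches of 50 bases shared between genes from its longest transcripts, and promoter windows from RefSeq on GRCm38.p6. Depth was estimated from 2874 genes with a single transcript, and low values rest on few fragments.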

Additional observations from a re-analysis of the deposited data

How the results depend on the processing

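Besides leaving out libraries, 9 alternatives were run. Of the single-gene values of tested members, 409 kept their direction and their side of the threshold, 22 lost the call, 7 gained it and 3 changed sign. The sign changes were in H3.1K9M against H3.1WT, for Rhox2a with the feeder covariate (log2 fold change 0.0281) and for Rhox6 with the feeder covariate (−0.121) and quantile scaling (−0.0247), none of them called. With a library left out, Rhox2a ran from −0.40 to 0.12 and Rhox6 from −0.16 to 0.18 in that comparison, and Rhox2a from −0.484 to 0.0388 in H3.1WT against shNC.

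The number of members called was 0 in H3.1K9M against H3.1WT with a pseudocount of 0.1, no filter, a 5 FPKM filter, array weights, the feeder covariate or the 2 groups alone. It was 0 in shSuv39h1 against shNC with no filter, the replicate block or the 2 groups alone. In H3.1WT against shNC it was 0 with no filter, array weights, the replicate block or the 2 groups alone, and 2 with the feeder covariate. Without 1 library it ran from 0 to 2 in H3.1K9M against H3.1WT, 3 to 3 in H3.1K36M against H3.1WT, 5 to 5 in H3.1K36M against H3.1K9M (Rhox2a counted in both), 4 to 6 in shSuv39h2 against shNC, 1 to 5 in shSuv39h2 against shSuv39h1, and stayed at 0 in shSuv39h1 and in H3.1WT against shNC.

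Counts over all genes moved more. In H3.1K9M against H3.1WT the 41 genes became 12 with no filter, 27 with a 5 FPKM filter, 1 with array weights, 19 with the feeder covariate and 3 with the 2 groups alone, and 2 to 695 without 1 library. In H3.1K36M against H3.1WT the 634 became 354 with a 5 FPKM filter, 2983 with array weights and 1786 with the 2 groups alone, and 107 to 200 without 1 library. In H3.1K36M against H3.1K9M the 1080 became 663, 507 and 127 with the same settings and 1881 with the feeder covariate, and 267 to 1424 without 1 library. In shSuv39h1 against shNC the 19 became 11 with a pseudocount of 0.1, 10 with the replicate block and 1 with the 2 groups alone, and 0 to 18 without 1 library, where 1384 genes had an unadjusted p below 0.05 in the full fit. In shSuv39h2 against shNC the 1316 became 860 with array weights, 2106 with the feeder covariate and 145 with the 2 groups alone, and 360 to 1567 without 1 library. In shSuv39h2 against shSuv39h1 the 860 became 2103 with array weights, and 76 to 221 without 1 library. In H3.1WT against shNC the 44 became 29 with a 5 FPKM filter, 160 with the feeder covariate and 1 with the 2 groups alone, and 7 to 147 without 1 library. The cause was not tested, except that a fit without 1 library or to 2 groups has fewer samples and a 5 FPKM filter tests fewer genes.

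Scaling moved the median of all genes by at most 0.0456. It moved the split of genes that rose and fell in H3.1K36M from 406 and 228 to 317 and 273 with quantile scaling against H3.1WT, from 730 and 350 to 550 and 442 with median-of-ratios scaling against H3.1K9M, and in shSuv39h1 from 11 and 8 to 8 and 11 with quantile and 5 and 8 with median-of-ratios scaling. In shSuv39h2 against shNC, 701 and 615 became 554 and 653 with quantile and 635 and 642 with median-of-ratios scaling, so the larger side turned there too. Replicate numbers share only a number: between groups, the differences of library 1 and library 2 correlated at −0.384 to 0.517 over 15 pairs of groups, and the replicate block changed no other call of a member. Library 1 and library 2 differed most in H3.1K9M, with an SD of 0.410 over genes (log2), and least in H3.1K36M, with 0.223.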
